A study of Rattus norvegicus with 6 samples.

Results

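The mu class is a family of cytosolic glutathione S-transferases, enzymes that join the tripeptide glutathione to electrophilic compounds so that these can be exported. In rodents its genes lie side by side in a cluster, several of them are targets of the stress-responsive transcription factor NRF2 in mouse liver, and their proteins are so alike that related genes can share sequencing reads. All rows of the deposited gene table of injured rat sciatic nerve whose gene name begins with Gstm and a digit were taken as members, which gave 8 of 33713 genes. The family was picked because Gstm3 stood out between stimulated and unstimulated nerve in these same libraries, so differences of its members between the groups are given as a description and support nothing.

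Bulk RNA sequencing covered 6 samples of sciatic nerve taken on day 4 from Sprague-Dawley rats, all female and 8 weeks old. In the 3 ES samples the nerve, retracted to a gap of about 6 mm, was stimulated electrically for 1 h at once. The 3 control samples had the same injury without stimulation. In both groups both nerve ends were then fixed by suture in a silicone tube of 10 mm, each reaching 2 mm inside, and no transgene or other agent is named in the labels. Library totals ran from 14962319 to 17119144 counts. Whether each sample is a different animal is not in the labels, so the p-values speak only for the variation among these 6 samples, and this may be technical. The tissue carried Schwann cell markers in quantity, with a summed level of 10854 to 11482 CPM (counts scaled to library size) in ES and 8493 to 11057 CPM in control over 8 markers. Fibroblast markers, 5 in number, were also abundant, summing to 11555 to 12510 CPM in ES and 12263 to 15139 CPM in control.

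Gstm3 was the member that differed most between the groups. It made up 17.1%, 13.2% and 12.4% of the family's counts in the ES libraries and 0.256%, 0.597% and 0.330% in the control libraries. Gstm1, Gstm2 and Gstm4 carried nearly all of the family in control nerve, and their levels in CPM overlapped between the groups. The share of Gstm2 did not overlap, at 24.3%, 33.6% and 35.4% in ES and 42.3%, 39.9% and 46.3% in control. Shares depend on one another, so a higher share of Gstm3 lowers those of the rest. Gstm6 was detected at a few counts per library, Gstm3l at 3 counts in all, and Gstm5 and Gstm6l at 0 in every library. The exact binomial 95% intervals of the Gstm3 share lay between 10.9% and 18.9% in the ES libraries and between 0.0833% and 1.13% in the control libraries, and they cover counting error only.

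Of the 8 members, 7 lie on chromosome 2 within 154099 bases, from 210685197 to 210839295 in the coordinates of the deposited table. Gstm3 is the outermost gene of the cluster and the only one of these 7 on the plus strand. The other 6, in order Gstm6l, Gstm2, Gstm6, Gstm3l, Gstm1 and Gstm4, are on the minus strand. The intervals of Gstm6 and Gstm3l lie inside that of Gstm2, which spans 62153 bases on the same strand. Gstm5 is listed apart from them, on the unplaced scaffold KL568438.1. The sources used here do not say how reads over nested genes were counted.

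**Figure D1:**
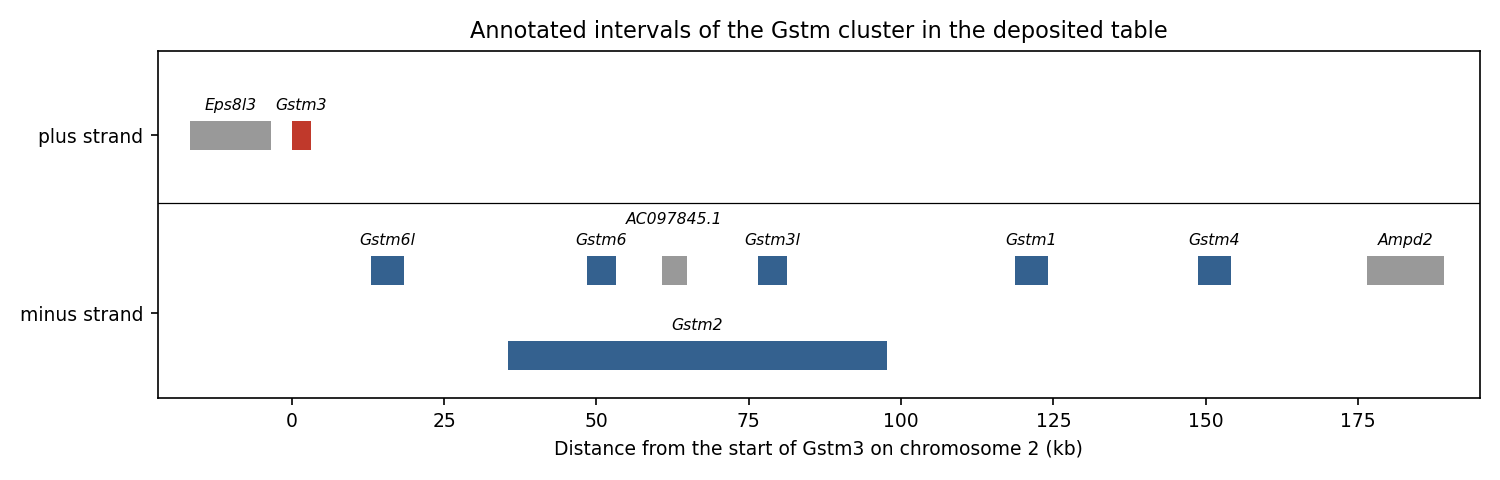
Annotated intervals of the Gstm cluster and its nearest protein-coding neighbours, by distance in kb from the start of Gstm3 on chromosome 2, with plus-strand genes above the line. Gstm3 (red) lies alone on the plus strand among the members (blue), and the Gstm2 interval encloses Gstm6 and Gstm3l.

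The names of these genes differ between annotations, which bears on what Gstm3 is. In the RefSeq gene table of the rat assembly GRCr8, used here for names, order and strand only, the gene after Eps8l3 and on the plus strand is named Gstm5, with Gstm3 as an older symbol. The deposited Gstm3 (ENSRNOG00000049743) also follows Eps8l3 on the plus strand. Its length of 958 bases and span of 3076 bases are close to the 970 and 3088 bases of the deposited Gstm5 on the unplaced scaffold, and the GRCr8 Gstm5 spans 2964 bases. The gene that GRCr8 calls Gstm3 is on the minus strand between Gstm6 and Gstm2 and has Gstm3l among its older symbols. In human, the mu-class gene that lies in the opposite orientation to its neighbours is named GSTM3. The symbol Gstm3 is kept below as the deposited tables give it, and it names the plus-strand locus beside Eps8l3. GRCr8 also places a gene named Gstm7 between Gstm6l and Gstm6, where the deposited Gstm2 interval runs, so the Gstm2 count could include reads of Gstm7, which was not tested.

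RefSeq promoter windows, 250 bases before and 50 bases after a start site, were matched by symbol for 6 of the 8 members. Because of the naming above, the window shown for the Gstm3 locus is that of the GRCr8 gene named Gstm5, assigned by its neighbour and strand. It is printed beside the window of Gstm1, the member with the highest level per length, and beside that of the gene GRCr8 calls Gstm3, so that the candidates for the name can be told apart. Capitals mark matches, on either strand, to the core of the antioxidant response element (TGACNNNGC, the sequence NRF2 binds), to the AP-1 site (TGACTCA) and to the TATA box (TATAAA).
Gstm5 of GRCr8, plus strand, chr2:198219519-198219818: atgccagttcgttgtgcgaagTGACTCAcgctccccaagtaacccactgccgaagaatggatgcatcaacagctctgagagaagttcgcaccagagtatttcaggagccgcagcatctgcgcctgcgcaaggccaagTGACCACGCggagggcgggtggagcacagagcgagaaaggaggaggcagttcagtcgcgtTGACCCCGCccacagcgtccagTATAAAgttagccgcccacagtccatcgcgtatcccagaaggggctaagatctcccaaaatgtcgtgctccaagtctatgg
Gstm1 of GRCr8, minus strand, chr2:198343334-198343633: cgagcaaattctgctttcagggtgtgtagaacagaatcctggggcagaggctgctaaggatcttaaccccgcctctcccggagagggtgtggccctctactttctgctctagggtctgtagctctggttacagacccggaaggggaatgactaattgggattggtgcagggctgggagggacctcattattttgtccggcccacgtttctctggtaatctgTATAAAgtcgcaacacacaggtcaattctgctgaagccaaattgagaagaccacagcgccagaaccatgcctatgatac
Gstm3 of GRCr8, minus strand, chr2:198300618-198300917: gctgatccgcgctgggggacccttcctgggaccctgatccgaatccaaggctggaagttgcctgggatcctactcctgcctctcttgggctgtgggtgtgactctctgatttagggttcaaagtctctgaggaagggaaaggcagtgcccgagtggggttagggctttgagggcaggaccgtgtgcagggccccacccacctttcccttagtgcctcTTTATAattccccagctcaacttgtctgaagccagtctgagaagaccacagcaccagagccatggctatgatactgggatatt
The window of the plus-strand gene held 2 antioxidant response element cores, at bases −113 to −105 and −53 to −45 from the start site, an AP-1 core at −229 to −223 and a TATA box at −31 to −26. A TATA box was the only one of these motifs in the other windows shown. The motifs were chosen after the sequence was seen.

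Over the 8 Gstm windows in the RefSeq table, the antioxidant response element core occurred in 2, those of the plus-strand gene and of Gstm7. Of all 33469 rat windows of the same length, 12.1% held it, 4.63% held the AP-1 core and 14.2% held the TATA box. The GC box (GGGCGG) was in 33.1% of them and the core that the aryl hydrocarbon receptor binds (GCGTG) in 29.7%. Among the 8 Gstm windows the AP-1 core occurred in 1, the TATA box in 3, the GC box in 3 and the aryl hydrocarbon receptor core in 2. These shares count windows with at least 1 match, so they give no background for 2 cores in 1 window. A GC box match on the minus strand overlapped the antioxidant response element core nearer to the start site, and a match to the aryl hydrocarbon receptor core overlapped the other one. A match is only a run of letters, and binding was not measured.

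**Figure D2:**
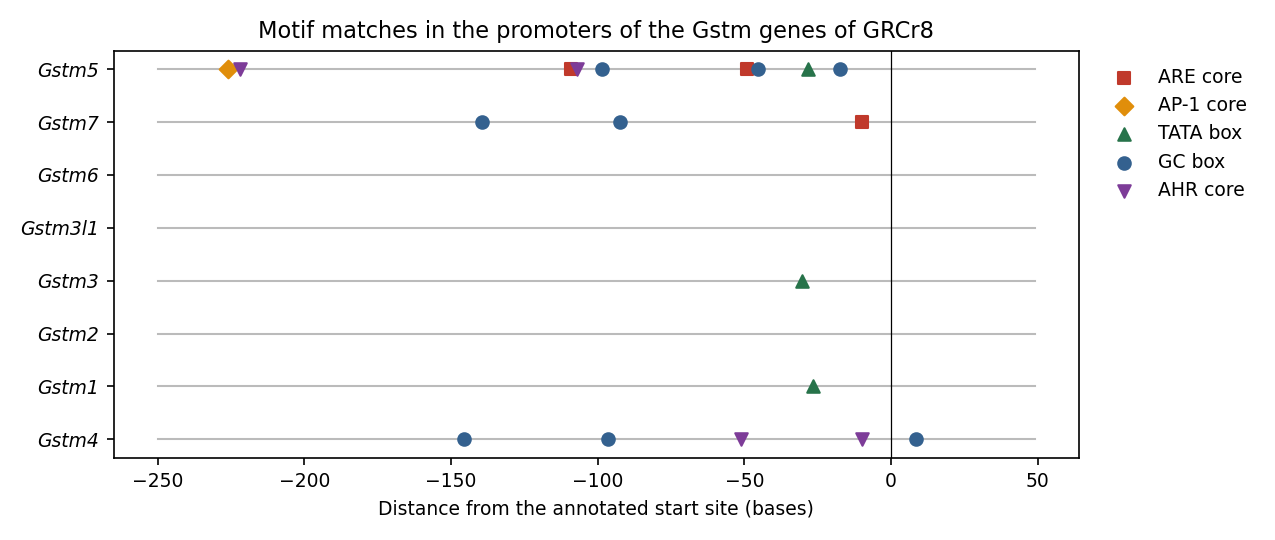
Positions of 5 motifs in the 8 Gstm promoter windows of GRCr8, in bases from the annotated start site, with each mark at the centre of a match on either strand (ARE, antioxidant response element; AHR, aryl hydrocarbon receptor). The plus-strand gene, top row, holds 2 ARE cores and the only AP-1 core.

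Gstm3 held 314, 246 and 210 counts in ES 1, ES 2 and ES 3, against 5, 9 and 6 counts in control 1, control 2 and control 3. Scaled to library size and TMM factor, these were 18.6, 14.7 and 13.8 CPM in ES and 0.308, 0.589 and 0.385 CPM in control. ES 1 was the highest and the groups were far from overlapping. The means were 15.7 ± 2.55 CPM in ES and 0.427 ± 0.145 CPM in control (SD, n = 3 each), a log2 fold change of 5.18 ± 0.26 (SE, edgeR). In deposited FPKM, a unit that also divides by gene length, Gstm3 stood at 16.4 ± 2.65 in ES and 0.445 ± 0.152 in control (SD, n = 3 each). Per length its mean lay above that of 66% of the 14828 tested genes in ES and of 3.74% of them in control. Gstm3 entered this set of genes only through its ES libraries, so nothing is read from its low place in control.

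The counts of Gstm3 were also set against those of its relatives, since genes with matching sequence can share reads and this sharing was not tested. Per 100 counts of Gstm1, Gstm3 had 54.4, 37.6 and 38.7 counts in the ES libraries and 0.759, 1.67 and 1.05 in the control libraries. Per 100 counts of Gstm4 it had 62.9 to 74.8 in ES and 1.10 to 2.56 in control. Gstm5, the deposited gene of nearly the same length on the scaffold, had 0 counts in all 6 libraries, which allows up to 0.178 to 0.197 CPM per library (3 counts) as far as counting error goes. Fth1, the ferritin heavy chain that most cells express, was also at 0 in all 6 libraries, so a 0 in this table does not by itself show that a gene was not transcribed.

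Gstm2 had 446, 627 and 600 counts in the ES libraries and 825, 601 and 840 in the control libraries. In CPM these were 26.4, 37.5 and 39.4 in ES and 50.8, 39.4 and 53.9 in control. ES 1 was the lowest of all libraries. The groups overlapped only because ES 3, at 39.363 CPM, lay just above control 2, at 39.351 CPM. Its log2 fold change was −0.48 ± 0.17 (SE, edgeR), and −0.32 without ES 1, which moved it by over 1.5 times. ES 1 also had the lowest adipocyte marker sum, at 224 CPM. In a fit that also held the mean log2 CPM of the 11 adipocyte markers, added once the data had been seen, the log2 fold change of Gstm2 was 0.04, while that of Gstm3 was 4.78. The summed adipocyte markers did not overlap between the groups, although Fabp4 and Lep taken alone did, so in such a fit fat content and stimulation cannot be told apart.

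Gstm1, whose mouse counterpart also binds and restrains the stress kinase ASK1, was the steadiest member. It had 34.2, 39.1 and 35.6 CPM in ES and 40.6, 35.4 and 36.6 CPM in control, ranges that overlapped. Its log2 fold change was −0.05 ± 0.10 (SE, edgeR) and took either sign over the alternatives, between −0.10 and 0.18. Gstm4, whose human counterpart can also act on lipid mediators, had 29.0, 19.7 and 21.9 CPM in ES and 28.0, 23.0 and 25.02 CPM in control. ES 1 was the highest for Gstm4 and the lowest for Gstm2 and Gstm1. The log2 fold change of Gstm4 was −0.11 ± 0.15 (SE, edgeR). It was −0.28 without ES 1, 0.01 without ES 2, −0.06 without ES 3, −0.02 without control 1, −0.17 without control 2 and −0.59 with the adipocyte covariate, so its sign is not settled.

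**Figure D3:**
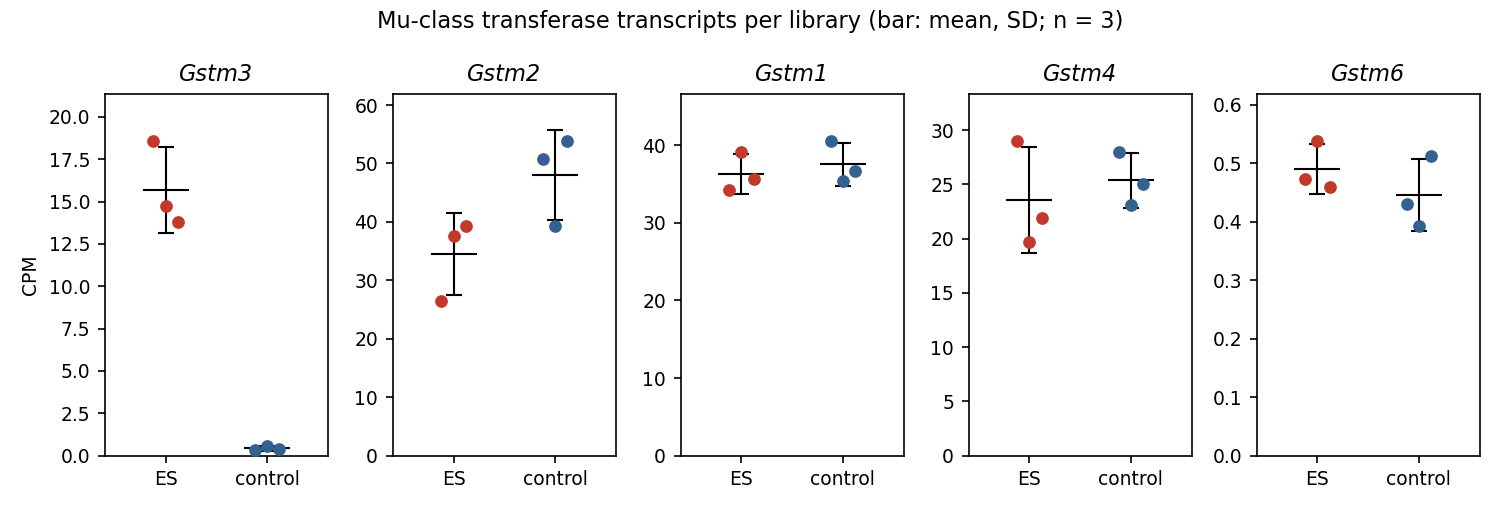
Levels in CPM of the 5 members with more than 3 counts in all, each point 1 library (3 ES, 3 control), with a bar at the mean and whiskers of 1 SD, each panel on its own axis from 0. Gstm3 separates the groups at 13.8 to 18.6 CPM in ES against 0.308 to 0.589 CPM in control, while the ranges of the other 4 overlap.

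The remaining members were near or below detection. Gstm6 had 8, 9 and 7 counts in ES and 7, 6 and 8 in control, or 0.491 ± 0.0423 CPM and 0.446 ± 0.0615 CPM (SD, n = 3 each). Gstm3l had 2 counts in ES 1 and 1 count in control 3, both at or under 3 counts per group, and no fold is given. Gstm5 and Gstm6l had none.

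Of the 8 members, 4 passed the filter on low counts: Gstm1, Gstm2, Gstm3 and Gstm4. Gstm3 passed only through its ES libraries and so had to differ. edgeR's quasi-likelihood test called 1 of these 4, Gstm3, higher in ES at a Benjamini-Hochberg adjusted p under 0.05, where it called 0.169% of all 14828 tested genes in either direction and 0.0337% higher in ES. The CPM ranges of 1 of the 4 did not overlap, against 15.8% of all tested genes. Since the family was chosen from this contrast, nothing is read from these counts.

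Summed over all 8 members, the family had 109, 112 and 111 CPM in ES and 120.1, 98.7 and 117 CPM in control. The means were 111 ± 1.52 CPM in ES and 112 ± 11.4 CPM in control (SD, n = 3 each), a log2 ratio of −0.02. The family total was thus alike in mean while its composition differed. Without Gstm3, which was left out after the data were seen, the sum was 90.2, 96.9 and 97.4 CPM in ES and 119.8, 98.1 and 116 CPM in control. The difference of means was −16.6 CPM, and most of it lay in Gstm2, in control the largest member in CPM. Without Gstm2 the sum was 76.1 ± 5.57 CPM in ES and 63.8 ± 5.07 CPM in control (SD, n = 3 each).

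Per length the picture of the total shifts, because Gstm3 is shorter than Gstm2. The summed FPKM was 80.4, 80.9 and 79.1 in ES and 78.4, 65.5 and 74.7 in control, a ratio of means 10.0% higher in ES. On this scale the groups just missed each other, at 79.1 in ES 3 and 78.4 in control 1. Without Gstm3 the FPKM sum was 63.8 ± 2.43 in ES and 72.4 ± 6.79 in control (SD, n = 3 each), and the groups overlapped. Sums over members chosen with results known carry no test.

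**Figure D4:**
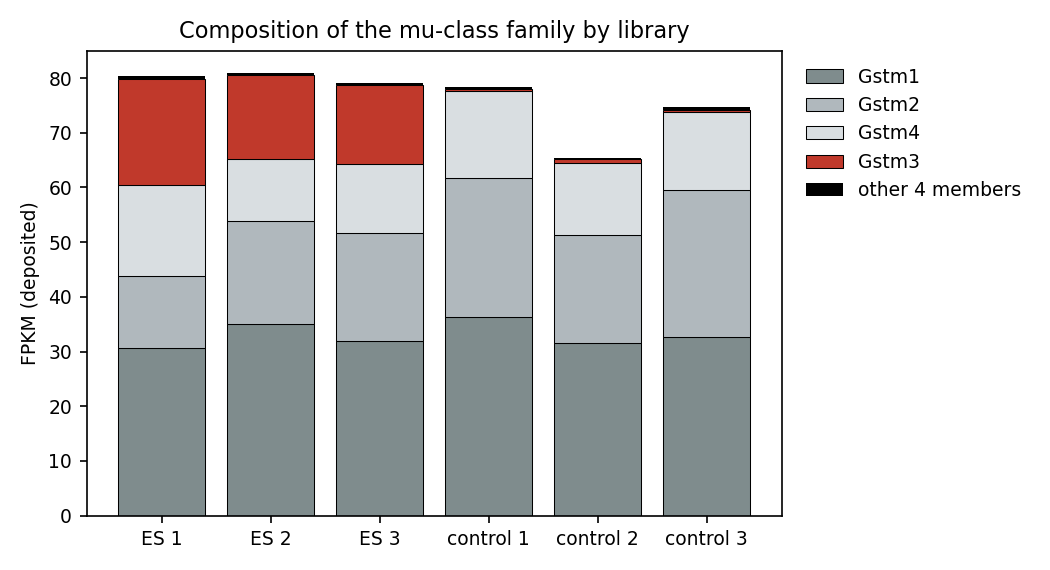
Deposited FPKM of the members stacked by library, 3 ES libraries then 3 control libraries, with the 4 least abundant members pooled in black. Gstm3 (red) supplies 14.4 to 19.4 FPKM in ES and 0.320 to 0.614 FPKM in control, while totals run from 79.1 to 80.9 in ES and from 65.5 to 78.4 in control.

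The order of members per length differed between the groups in the place of Gstm3. In ES, Gstm1 led at 32.5 ± 2.29 FPKM, ahead of Gstm2 at 17.3 ± 3.53, Gstm3 at 16.4 ± 2.65 and Gstm4 at 13.5 ± 2.78 FPKM (SD, n = 3). The libraries of Gstm2, Gstm3 and Gstm4 overlapped from each to the next in that order. In control, Gstm1 at 33.5 ± 2.43, Gstm2 at 24.0 ± 3.79 and Gstm4 at 14.5 ± 1.43 FPKM (SD, n = 3) did not overlap, and Gstm3 overlapped with Gstm6 at 0.386 ± 0.0525 FPKM. Among the 28 transferase genes that were members or matched the list, Gstm3 ranked 8 in ES and 20 in control by mean FPKM. This ranking leaves out 6 further rows described as transferases. Of these, LOC108348061 and LOC103694878 lay above Gstm3 in control, at 11.7 and 0.512 FPKM, and none did in ES. Gstp1, the pi-class enzyme, ranked 1 in both groups, at 363 ± 43.5 FPKM in ES and 269 ± 15.7 FPKM in control (SD, n = 3 each).

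Summed markers of several other cell types differed between the groups. The part of cell types in the values of Gstm3 and Gstm2 was not tested beyond the covariate fit above. Fibroblast sums overlapped between the groups, with 1 of 5 markers above 0 in log2 fold change. Perineurial sums also overlapped, at 777 to 1024 CPM in ES and 860 to 925 CPM in control. Skeletal muscle sums were 4.20 to 6.43 CPM in ES and 6.86 to 7.07 CPM in control. Adipocyte markers had log2 fold changes below 0 in 11 of 11, with sums of 224 to 819 CPM in ES and 1546 to 1884 CPM in control. Macrophage markers had log2 fold changes above 0 in 9 of 9, with sums of 1256 to 1617 CPM in ES and 1033 to 1167 CPM in control. Endothelial marker sums were 318 to 334 CPM in ES and 389 to 496 CPM in control, and smooth muscle sums 249.5 to 318 CPM in ES and 419 to 526 CPM in control. Neutrophil markers summed to 163 CPM in ES 2 and to 13.6 to 21.7 CPM elsewhere, and erythrocyte markers to 1165 CPM in ES 2 and 55.2 to 138 CPM elsewhere. The neutrophil sum hides opposite directions, since 3 of the 4 tested markers had log2 fold changes above 0. The other, Mpo, was at 0.0592 to 0.853 CPM in ES and 5.89 to 10.8 CPM in control (log2 fold change −3.87). Fewer cells of a type and less RNA per cell cannot be told apart in bulk tissue. The sum of 4 hepatocyte markers was 0.651 to 2.33 CPM in ES and 0.924 to 4.71 CPM in control.

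The genes around the cluster were compared to see whether the surroundings of Gstm3 moved with it. Of the 5 nearest named genes on each side, 6 of 10 were tested and edgeR called 0 of them; DESeq2, which called 2.06% of all genes it tested, also called 0. By edgeR 1 of the 6 had an unadjusted p under 0.05, where 9.95% of all tested genes did (4.01% higher and 5.94% lower in ES). Eps8l3, whose end lies 3401 bases from the start of Gstm3, had 0 counts in all libraries. Csf1, which encodes the macrophage growth factor, was at 54.3 ± 3.92 CPM in ES and 54.97 ± 2.00 CPM in control (SD, n = 3 each). On the other side Ampd2, an AMP deaminase, was at 31.9 ± 0.945 CPM in ES and 32.3 ± 3.78 CPM in control (SD, n = 3 each). Amigo1, an adhesion protein of neurons, was at 10.1 ± 0.673 CPM in ES and 13.0 ± 1.00 CPM in control (SD, n = 3 each), a log2 difference of −0.36 that edgeR did not call (adjusted p = 0.384). The rows AC097845.1 and RF00056 inside the cluster had 0 counts.

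Other transferases were examined as the nearest functional relatives. Of 21 listed genes outside the mu class, 20 matched and 16 were tested; edgeR called 0. Before adjustment 2 of the 16 were higher and 2 lower by edgeR at p under 0.05, against 4.01% and 5.94% of all tested genes. DESeq2 called 1 in each direction, against 2.06% of its tested genes called in either. Gstp1 was at 317, 268 and 253 CPM in ES and 194.6, 218 and 210.2 CPM in control, with no overlap and a log2 fold change of 0.43 ± 0.09 (SE; edgeR adjusted p = 0.129). Mgst1, a microsomal transferase, was at 52.9, 67.1 and 56.2 CPM in ES and 121, 85.1 and 87.4 CPM in control, with a log2 fold change of −0.74 ± 0.16 (SE; edgeR adjusted p = 0.152). DESeq2 called both (adjusted p = 0.00276 for Gstp1 and 0.000124 for Mgst1). Over all alternatives the adjusted p ran to 0.989 for Gstp1 and to 0.985 for Mgst1. Gstz1, the zeta-class enzyme of tyrosine breakdown, had a log2 fold change of −0.39 and Mgst2 one of 0.40, which was 0.24 without ES 2. The median log2 fold change of the 16 was −0.14, and that of all tested genes 0.00.

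Genes that make and recycle glutathione showed small differences. Of 17 listed, 16 were tested and edgeR called 0, as did DESeq2. Before adjustment edgeR had 1 of the 16 higher and 0 lower at p under 0.05, against 4.01% and 5.94% of all tested genes. Their median log2 fold change was 0.12, with 12 above 0. Slc7a11, which imports the cystine used for glutathione, was at 5.45, 10.7 and 5.25 CPM in ES and 3.82, 4.52 and 5.26 CPM in control, and its groups overlapped. Its log2 fold change of 0.66 was 0.25 without ES 2. Gclc, the catalytic subunit of the rate-limiting synthetic enzyme, was at 37.3 ± 3.78 CPM in ES and 34.1 ± 4.45 CPM in control (SD, n = 3 each), and Gclm, its modifier subunit, had a log2 fold change of −0.01 ± 0.09 (SE). Oplah, which recovers glutamate from glutathione breakdown, had a log2 fold change of 0.23, the aminopeptidase Lap3 one of 0.12, and the dipeptidase Dpep2 one of −0.49. Oplah was at 0.13 without ES 1 and 0.14 without control 1, and Dpep2 at −0.31 without ES 3. Of 7 glutathione peroxidase genes, 6 were tested and edgeR and DESeq2 called 0 each. Prdx6 (log2 fold change 0.15 ± 0.07, SE) was the 1 gene of the 6 below 0.05 in edgeR before adjustment, where 9.95% of all tested genes were. The peroxidases Gpx1, Gpx7 and Gpx2 had log2 fold changes of 0.15, 0.11 and 0.28. Single libraries moved them: leaving out 1 library gave 0.09 (without control 2) to 0.20 for Gpx1, 0.06 (without control 2) to 0.18 (without control 3) for Gpx7, and 0.03 (without control 1 or control 2) to 0.98 (without control 3) for Gpx2, which was also 0.12 without ES 2.

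Of the 10 genes for export of glutathione conjugates and their conversion to mercapturates, 8 were tested. edgeR called 0; before adjustment 2 of the 8 were higher and 1 lower at p under 0.05, against 4.01% and 5.94% of all tested genes. DESeq2 called 1, higher in ES, against 2.06% of its tested genes called in either direction. That gene was Abcg2, an efflux pump, at 9.65, 12.03 and 8.33 CPM in ES and 5.85, 5.04 and 5.45 CPM in control, with no overlap (log2 fold change 0.88 ± 0.19, SE; edgeR adjusted p = 0.105, DESeq2 adjusted p = 0.0148, range 0.0148 to 0.487 over all alternatives). Abcc1, a main exporter of glutathione conjugates, had a log2 fold change of −0.14, and its relatives Abcc3 and Abcc5 had values of −0.30 and 0.21. Abcc1 was at −0.08 without ES 3 or without control 2.

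Regulators and targets of NRF2 were compared because several mu-class genes are among its targets. Of 16 listed, 14 were tested and edgeR called 1, Nqo1, higher in ES. That is 1 of 14, against 0.169% of all tested genes. Before adjustment edgeR had 3 of the 14 higher and 0 lower at p under 0.05, against 4.01% and 5.94% of all tested genes. DESeq2 called 2, both higher in ES, against 2.06% of its tested genes. Their median log2 fold change was 0.14, with 12 of 14 above 0, against 50.7% of all tested genes. Nqo1, a quinone reductase, was at 41.03, 35.01 and 32.1 CPM in ES and 22.2, 22.7 and 21.4 CPM in control (log2 fold change 0.71 ± 0.11, SE; edgeR adjusted p = 0.0429). That call was lost without ES 1 (0.112), ES 2 (0.0686), control 1 (0.131) or control 3 (0.251), as edgeR adjusted p-values, and over all alternatives the adjusted p ran from 0.000106 to 0.812. Ftl1, the ferritin light chain, and Txn1, thioredoxin, had log2 fold changes of 0.31 ± 0.09 and 0.26 ± 0.08 (SE; edgeR adjusted p = 0.226 and 0.268), and DESeq2 called Ftl1 (adjusted p = 0.0148; range up to 0.989 over all alternatives). Hmox1, heme oxygenase, was at 364, 219.6 and 122 CPM in ES and 128, 91.9 and 105 CPM in control, with overlapping groups, and its log2 fold change of 1.12 was 0.66 without ES 1. The transcripts of NRF2 itself (Nfe2l2) and of its repressor Keap1 had log2 fold changes of 0.02 ± 0.07 and 0.00 ± 0.09 (SE).

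The aryl hydrocarbon receptor, another inducer of detoxifying enzymes, and its targets gave no call. Of 7 listed, 6 were tested; edgeR called 0, also before adjustment at 0.05, and DESeq2 called 0. The receptor gene Ahr had a log2 fold change of −0.20, and its targets Cyp1b1 and Tiparp had values of 0.04 and −0.08. Single libraries moved all 3: Ahr was −0.01 without control 1, Tiparp was 0.08 without ES 1 and −0.28 without ES 2, and Cyp1b1 was −0.00136 without control 2 and 0.11 without control 1. Aldh3a1, an aldehyde dehydrogenase, had a log2 fold change of −0.45 ± 0.41 (SE), or −0.72 (without control 3) to −0.28 (without ES 1) when 1 library was left out.

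**Figure D5:**
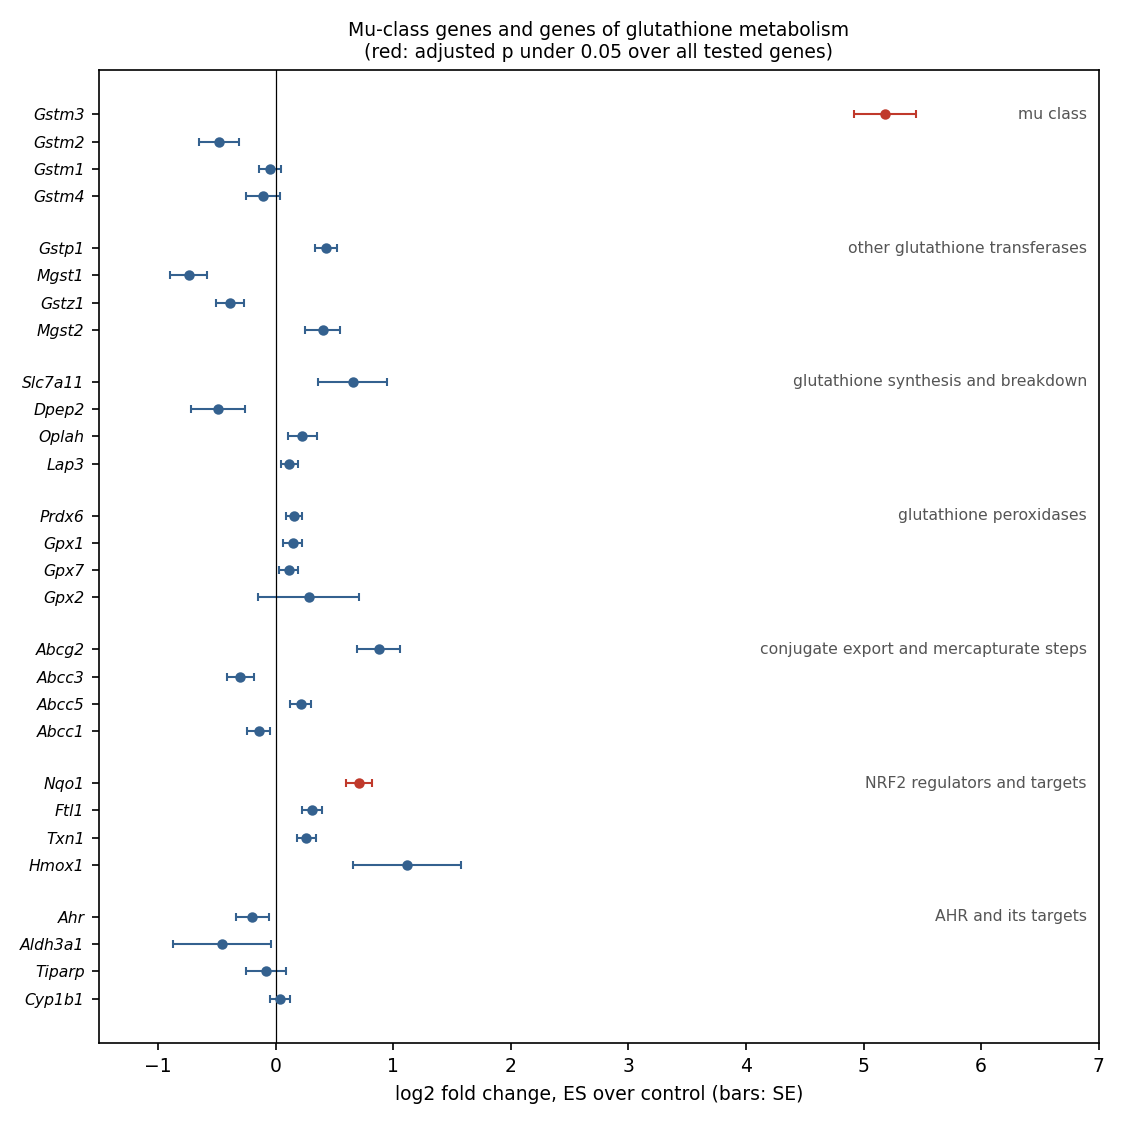
Log2 fold changes of ES over control with SE from the edgeR fit, for the 4 tested mu-class genes and up to 4 genes with the lowest unadjusted p of each of 6 lists; red marks an adjusted p under 0.05 over all tested genes. Gstm3 stands at 5.18 and the others between −0.74 and 1.12, with Nqo1 at 0.71.

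Genes were also ranked by how closely their profile over the 6 libraries followed that of Gstm3, as the root mean square difference of log2 CPM centred on each gene's mean. The nearest were Casp6, an effector caspase, at 1.57, Ms4a6bl at 1.62 and Mcemp1 at 1.63, where a flat profile would differ by 2.44. None of them followed it closely: Casp6 was at 5.03, 6.28 and 0.918 CPM in ES and 0.369, 1.18 and 0.513 CPM in control, and its groups overlapped. Mcemp1, a gene of mast cells and myeloid cells, was at 4.38, 6.64 and 2.30 CPM in ES and 0.431, 0.917 and 2.18 CPM in control, with no overlap. DESeq2 called Casp6 (adjusted p = 0.00485) and Mcemp1 (0.0199) but not Ms4a6bl (0.0518), against 2.06% of its tested genes. edgeR called none of them (adjusted p = 0.327 for Casp6 and Mcemp1, 0.440 for Ms4a6bl). These genes were picked for likeness to Gstm3, so nothing is read from these calls. The family sum, with a flat-profile difference of 0.09, was nearest to Calu, Galnt1 and Brix1, which differed from it by 0.02 each. These likenesses are descriptions over 6 libraries and carry no test.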

How the data were processed

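The files deposited by the authors give raw read counts by gene and library, and FPKM by library and as group means. Dividing a count by its gene length and by 1 depth constant per library returned the deposited FPKM, and this constant differed from the column total by −2.3% to 1.83%. Per the submitters' processing notes the build is rn7, but genes on chromosome 1 reach position 282724300 and 6890 names start with AABR07, as in an earlier rat build, so the build of the printed coordinates is not settled. The sources used here name no aligner, counting tool or strand setting.

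Groups came from the sample titles. The test was edgeR 4.0.16 (R 4.3.3), quasi-likelihood with robust dispersions, after filterByExpr and TMM, two-sided, Benjamini-Hochberg adjusted over all 14828 genes kept and called under 0.05. SE is the absolute log2 fold change over the square root of F. Loci without a gene name (830, with 0.723% to 0.84% of counts) were kept, and 2 lines per table were empty. limma 3.58.1, DESeq2 1.42.0 and limma on log2(FPKM + 0.1) or log2(FPKM + 1), which understates changes of low genes, were alternatives. Scripts were tested on simulated counts. Libraries of 1 group differed by a chi-square per gene of 11.1 to 19.3, far beyond sampling noise. Members, lists and tests were chosen with earlier results of these data known. Named genes are every member, up to 4 genes of lowest p per list, genes inside the cluster and 5 on each side, and the 3 nearest profiles to Gstm3 and to the family sum. Gclc, Gclm, Nfe2l2, Keap1, Gpx4, Fth1, Fabp4, Lep and Mpo are named outside this rule, after their values were seen. 1 neighbouring gene is not reported here. List symbols were matched exactly, and 74 genes of 6 lists matched.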

Additional observations from a re-analysis of the deposited data

How the results depend on the processing

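The count of all called genes depended on the method. edgeR called 25 genes, and DESeq2 called 309; edgeR called 132 without a filter on low counts, 39 with library totals only, 15 with the adipocyte score as covariate (added after seeing the data) and 2 with non-robust dispersions. limma-voom called 2, and limma-trend 2 on log2(FPKM + 0.1) and 3 on log2(FPKM + 1). Leaving out 1 library gave 2 to 152 genes, lowest without control 3 and highest without control 2. For the listed genes the count of 1 became 5 with DESeq2, 3 without a filter and 0 with limma-voom, limma-trend, non-robust dispersions or the adipocyte score; leaving out 1 library gave 0 to 1. The log2 ratio of the family sum was 0.14 in FPKM, 0.25 without Gstm2 and −0.23 without Gstm3, and between −0.10 and 0.04 without 1 library. The cause of these changes was not tested. Of 40 named genes, 8 had a call that changed under at least 1 alternative. The log2 fold change of Gstm3 lay between 3.58, on log2(FPKM + 1), and 5.47.

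The samples share replicate numbers, but same-numbered samples did not deviate together (correlations of −0.125, −0.13 and −0.0368 across genes). The labels do not say whether equal numbers share an animal, a day or a batch. Correlations of expression cannot decide this, so a pairing remains unknown. A replicate block gave 11 called genes and 0 listed genes. Gstm6, Gstm3l, Gstm5 and Gstm6l lay near or below detection at this depth, and the reason was not tested. At this depth 3 counts stand for at most 0.197 CPM.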

Other observations

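Outside the lists, 6 further rows of the table are described as glutathione S-transferases, and 1 of them was tested. LOC108348061, described as alpha-3, was at 22.3, 21.3 and 26.6 CPM in ES and 18.2, 14.99 and 17.9 CPM in control, with no overlap between the groups (log2 fold change 0.46 ± 0.13, SE; edgeR adjusted p = 0.221, DESeq2 adjusted p = 0.13). LOC103690044, described as omega-2, had 0 counts in the ES libraries and 3, 10 and 1 counts in the control libraries. These rows were looked up after the data were seen.

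Gpx4, the peroxidase of lipid hydroperoxides that most cells express, was listed at 0 to 0.590 CPM in ES and 0.123 to 0.321 CPM in control. The count table thus gives little signal for a gene that is widely expressed, and its level here is uncertain.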
